A study of Mus musculus with 5 samples.

Results

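The genes described here are 52 splicing factor genes of the 27998 genes in the count matrices: every symbol that begins with Srsf and a digit, with Hnrnp, with Snrp, or with Sf3a or Sf3b and a digit. The rule uses names only and no measured value, but it was set with earlier results of these data known. By function they are 11 SR protein genes, 20 hnRNP genes, 8 genes of the Sm core, 4 genes of proteins specific to the U1 or U2 particle, 3 SF3a genes and 6 SF3b genes. They were measured by droplet-based single-cell RNA sequencing of the 3' ends of transcripts, in blood-forming cells that were sorted out of bone marrow. The mice were wild type, of strain C57BL/6, and are described as healthy controls. LSK cells, the gate that holds the haematopoietic stem cells, were negative for lineage antigens and positive for SCA1 and KIT. The remaining gates had KIT but neither lineage antigens nor SCA1. Within them, CD34 without CD16/32 defined the common myeloid progenitors (CMP), both antigens together the granulocyte/monocyte progenitors (GMP), and the lack of both the megakaryocyte/erythroid progenitors (MEP). The labels give no number of mice per sort, no drug treatment and no age.

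Pre-mRNA splicing removes introns in a large RNA-protein machine, the spliceosome, which is built anew on each intron. The U1 particle pairs with the 5' splice site and the U2 particle with the branch site, where the SF3a and SF3b complexes hold U2 in place; 7 Sm proteins form a ring on most of the small nuclear RNAs. SR proteins mostly bind exonic enhancers and help splice sites to be used, whereas hnRNPs coat nascent RNA and often repress sites or steer mRNA export and decay. In human blood, SF3B1 and SRSF2 are among the genes most often mutated in myelodysplastic syndromes.

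The labels list 5 samples, but the 2 CMP samples held identical matrices and were counted as 1 sample, so each gate was 1 library. There was no replicate check on any difference and no test between gates. All intervals given here are at 95% and cover counting error only, not the variation between sorts. The cells that passed the filters numbered 10870 for LSK, 3713 for CMP, 8027 for GMP and 6284 for MEP, and they held 75167959, 26919088, 73362645 and 80273121 unique molecular identifiers (UMIs, each standing for 1 captured transcript) respectively. The median UMIs per cell were 5992, 6904, 9100 and 12578 in that order, so MEP cells were sampled most deeply. Levels are given as CPM, the UMIs of a gene scaled to a common library total; since only transcript ends are counted, they carry no length factor, and genes may be set side by side on this scale. In a library sum, fewer cells of a type and less RNA per cell cannot be told apart. Granule genes were highest in GMP and erythroid genes in MEP, but megakaryocyte genes were not highest in MEP. The summed CPM of 6 granule genes (Elane, Mpo, Prtn3, Ctsg, Ms4a3 and Cebpe) was 706, 6089, 29050 and 13.5 in LSK, CMP, GMP and MEP libraries, and that of 12 erythroid genes was 109, 174, 47.6 and 8024. That of 9 megakaryocyte genes was 284, 504, 21.8 and 139, so MEP lay below LSK and CMP. Between 36 and 130 barcodes were shared by any pair of libraries.

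Hnrnpd, Hnrnpa0, Srsf9 and Srsf5 had the widest ranges across the gates among the hnRNP and SR protein genes, and their upstream sequences are shown because the results below turn on them. Each run is the 250 bases before the start of the gene's RefSeq transcript (GRCm38.p6), 5' to 3' on the gene's strand. Capitals mark matches to any of 5 motifs on either strand. CACGTG is the E-box. CCGGAAG is a site of the ETS type. CCAAT is the site of NF-Y. AGATAA is bound by the erythroid factor Gata1 and its relatives. TGACGTCA is the cAMP response element. None of the 5 motifs overlapped another in these 4 runs. The Hnrnpd run is chr5:99978939-99979188 on the minus strand and holds CCGGAAG, read on the other strand, and CACGTG. The Hnrnpa0 run is chr13:58128557-58128806 on the minus strand and holds CCAAT on the other strand. The Srsf9 run is chr5:115326927-115327176 on the plus strand and holds none of the 5. The Srsf5 run is chr12:80945249-80945498 on the plus strand and holds CCGGAAG on both strands.
Hnrnpd: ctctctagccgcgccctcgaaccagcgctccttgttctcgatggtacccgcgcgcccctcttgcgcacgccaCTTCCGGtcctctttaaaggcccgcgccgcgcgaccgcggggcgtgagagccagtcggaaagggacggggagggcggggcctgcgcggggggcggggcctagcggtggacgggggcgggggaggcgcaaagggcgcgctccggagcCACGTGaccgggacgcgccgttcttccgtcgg
Hnrnpa0: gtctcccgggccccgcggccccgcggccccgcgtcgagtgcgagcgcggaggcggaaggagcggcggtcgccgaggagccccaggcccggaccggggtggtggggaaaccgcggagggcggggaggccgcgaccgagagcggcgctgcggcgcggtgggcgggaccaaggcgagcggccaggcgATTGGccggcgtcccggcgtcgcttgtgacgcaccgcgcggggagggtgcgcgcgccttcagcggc
Srsf9: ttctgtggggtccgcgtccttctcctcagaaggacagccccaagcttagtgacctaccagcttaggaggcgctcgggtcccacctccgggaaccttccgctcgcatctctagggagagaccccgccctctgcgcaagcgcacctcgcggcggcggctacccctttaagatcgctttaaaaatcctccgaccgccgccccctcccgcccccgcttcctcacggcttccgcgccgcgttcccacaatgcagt
Srsf5: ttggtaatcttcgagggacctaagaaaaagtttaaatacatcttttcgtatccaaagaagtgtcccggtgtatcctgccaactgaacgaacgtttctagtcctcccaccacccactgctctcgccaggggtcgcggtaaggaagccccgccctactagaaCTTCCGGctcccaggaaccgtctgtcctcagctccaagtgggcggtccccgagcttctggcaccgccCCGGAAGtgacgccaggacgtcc

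Of the 52 genes, 46 had such a window in the RefSeq table, 63 windows in all. CCGGAAG stood in 30.2% of these windows, against 6.91% of all 32851 windows of the same length, and 15 of the 46 genes carried it. CCAAT stood in 42.9% against 33.9%, CACGTG in 7.94% against 6.02%, TGACGTCA in 3.17% against 1.55%, and AGATAA in 4.76% against 9.99%. All windows together include those of non-coding genes, and a match to letters is a description, not a bound site. Hnrnpd and its close relative Hnrnpdl lie on chromosome 5 with 54638 bases between them.

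Splicing factor transcripts made up 1.36% of the UMIs of LSK cells, and 1.69, 1.51 and 1.75% of those of CMP, GMP and MEP cells. LSK was lowest and MEP highest, and the counting intervals of the 4 sums did not overlap. Across the gates the hnRNPs took 36.9 to 39.6% of the members' UMIs, the Sm core 23.8 to 26.1% and the SR proteins 19.9 to 22.2%. The share of each of these families therefore moved by under 3 percentage points across the gates. Of the 52 genes, 50 had a mean of 1 CPM or more over the 4 libraries. Among these 50 the ratio of the highest to the lowest library ran from 1.10 to 3.43. In 25 of them the range stayed under 1.5-fold, in 19 it was 1.5- to 2-fold, and in 6 it was 2-fold or more: Hnrnpd, Hnrnpa0, Srsf9, Sf3a2, Snrpa1 and Srsf5. By CPM, 28 of the 50 were highest in MEP and 15 in CMP, and 25 were lowest in LSK and 17 in GMP. With scaling by median of ratios, 32 were highest in MEP and 44 lowest in LSK.

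**Figure D1:**
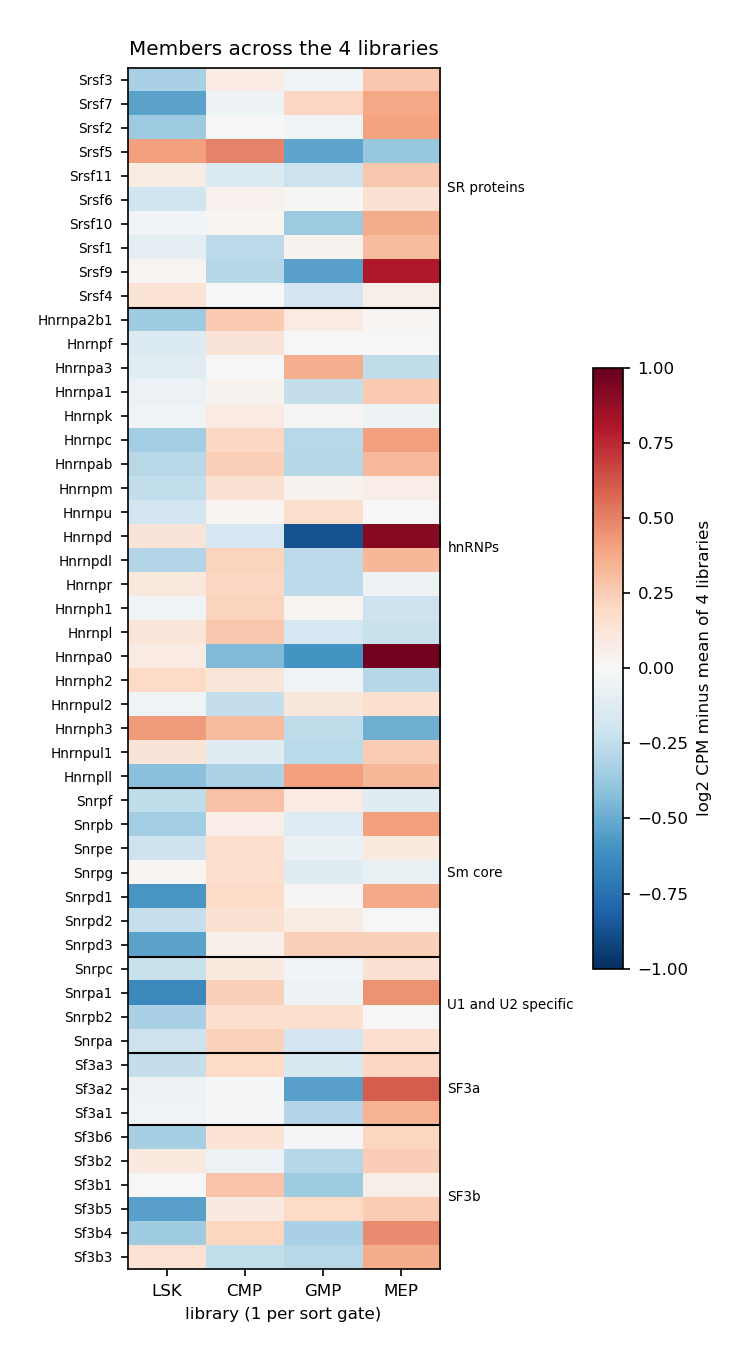
Each row is 1 of the 50 genes with a mean of 1 CPM or more, each column 1 library, and the colour is log2 CPM minus the gene's mean log2 CPM over the 4 libraries, on a scale that runs from -1 to 1. Most rows are pale in LSK, CMP and GMP; the deepest cells are Hnrnpa0, Hnrnpd and Srsf9, high in MEP and low in GMP.

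Free RNA in the droplets carried the same transcripts at much the same level. In the 426182 LSK barcodes with 1 to 100 UMIs, the log2 ratio of LSK cells to these barcodes ran from -0.39 to 0.54 over the 50 genes, with a median of 0.11. At an equal depth of 2000 UMIs per cell, the median LSK, CMP, GMP and MEP cell held 25, 33, 30 and 34 UMIs of the members. The SD among cells was 6.74, 6.73, 6.39 and 6.69 UMIs in that order, against 5.08, 5.74, 5.47 and 5.88 for Poisson counting alone. The spread among cells thus exceeded counting in each gate, and by the most in LSK. Every cell that reached this depth held at least 1 UMI of the members.

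Among the SR proteins, Srsf3, the smallest of the family, was at 609 in LSK, 808 in CMP, 743 in GMP and 918 CPM in MEP. Srsf7, which like Srsf3 serves as an adaptor for mRNA export, was at 389, 543, 649 and 735 CPM. Srsf2, which binds exonic enhancers, was at 428, 549, 537 and 728 CPM. All 3 were lowest in LSK and highest in MEP, and for Srsf2 the CMP and GMP levels were the closest neighbours in the order. Srsf9 was at 99.4 in LSK, 80.1 in CMP, 66.8 in GMP and 170 CPM in MEP, so that MEP stood apart from every other gate. Srsf10 was at 142, 146, 112 and 187 CPM, with GMP lowest. Srsf5 went another way, with 481 in LSK, 511 in CMP, 250.1 in GMP and 277 CPM in MEP: LSK and CMP were high, GMP and MEP low, and none of the counting intervals overlapped. Srsf12 had 15 UMIs in LSK and none in CMP, GMP or MEP, where the upper bounds of the exact Poisson intervals were 0.137, 0.0503 and 0.0460 CPM.

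Among the hnRNPs, Hnrnpa2b1, an RNA-binding protein of splicing and RNA sorting, was the most abundant, at 738 in LSK, 1133 in CMP, 1000.1 in GMP and 959 CPM in MEP. Hnrnpf, which binds G-rich runs, was at 638, 766, 701 and 704 CPM, and GMP and MEP differed least. Hnrnpa3 was at 601 in LSK, 647 in CMP, 834 in GMP and 543 CPM in MEP, and was thus highest in GMP. Hnrnpk, which binds C-rich sequence, had the narrowest range of the 50 genes, at 561, 606, 578 and 554 CPM. Hnrnpd, also known as AUF1, binds AU-rich elements and is known for its part in mRNA decay. It was at 215 in LSK, 174 in CMP, 107 in GMP and 369 CPM in MEP, the widest range of the 50. Hnrnpa0, another binder of AU-rich elements, was at 78.7, 54.8, 49.2 and 145 CPM in the same order of gates. In both genes the order was MEP, LSK, CMP, GMP, the order that Srsf9 also followed. Hnrnph3 was at 78.0 in LSK, 72.3 in CMP, 48.7 in GMP and 41.5 CPM in MEP. Hnrnpll, known for the exclusion of exons of Ptprc (CD45) in lymphocytes, was at 32.2, 34.5, 57.2 and 54.3 CPM, low in LSK and CMP and higher in GMP and MEP.

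By mean CPM over the 4 libraries the Sm core was led by Snrpf, at 607 in LSK, 884 in CMP, 767 in GMP and 666 CPM in MEP, where Snrpb was higher. Snrpb was at 526, 701, 610.3 and 886 CPM, and Snrpe at 502, 649, 553 and 619 CPM. Snrpd1 had the widest range of the ring genes, at 341 in LSK, 582 in CMP, 515 in GMP and 664 CPM in MEP. All of these were lowest in LSK, but Snrpf and Snrpe were highest in CMP and Snrpb and Snrpd1 in MEP. Snrpn, the imprinted relative of Snrpb that is used mainly in neurons, had 30 UMIs in LSK, 2 in GMP and none in CMP or MEP. Of the particle-specific proteins, Snrpa1, the U2 protein A', was at 128 in LSK, 237 in CMP, 193 in GMP and 274 CPM in MEP. Its U2 partner Snrpb2 was at 137, 192, 192 and 171 CPM, and the U1 protein gene Snrpc was at 188, 236, 216 and 244 CPM. LSK was lowest for all 3 of them, and the partners Snrpa1 and Snrpb2 differed in whether MEP was above or below CMP.

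In the SF3a complex, Sf3a3 was at 87.6 in LSK, 119 in CMP, 92.7 in GMP and 120 CPM in MEP. Sf3a2 was at 50.9, 52.1, 36.2 and 79.9 CPM, and Sf3a1 at 38.9, 39.3, 32.4 and 50.5 CPM. For Sf3a2 and Sf3a1 the LSK and CMP intervals overlapped, GMP was lowest and MEP highest. In the SF3b complex, Sf3b6, the subunit at the branch-point adenosine, was at 301 in LSK, 418 in CMP, 374 in GMP and 441 CPM in MEP. Sf3b2 was at 363, 327, 278 and 401 CPM. Sf3b1, the large scaffold subunit that clamps the branch helix, was at 320 CPM (316 to 324) in LSK, 390 (382 to 397) in CMP, 249.9 (246 to 254) in GMP and 333 (329 to 337) in MEP. It was highest in CMP and lowest in GMP, a range of 1.56-fold. Sf3b4 was at 95.8, 143, 97.9 and 170 CPM and Sf3b5 at 213, 330.4, 356 and 369 CPM. The subunits of 1 complex thus did not share 1 order of gates.

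**Figure D2:**
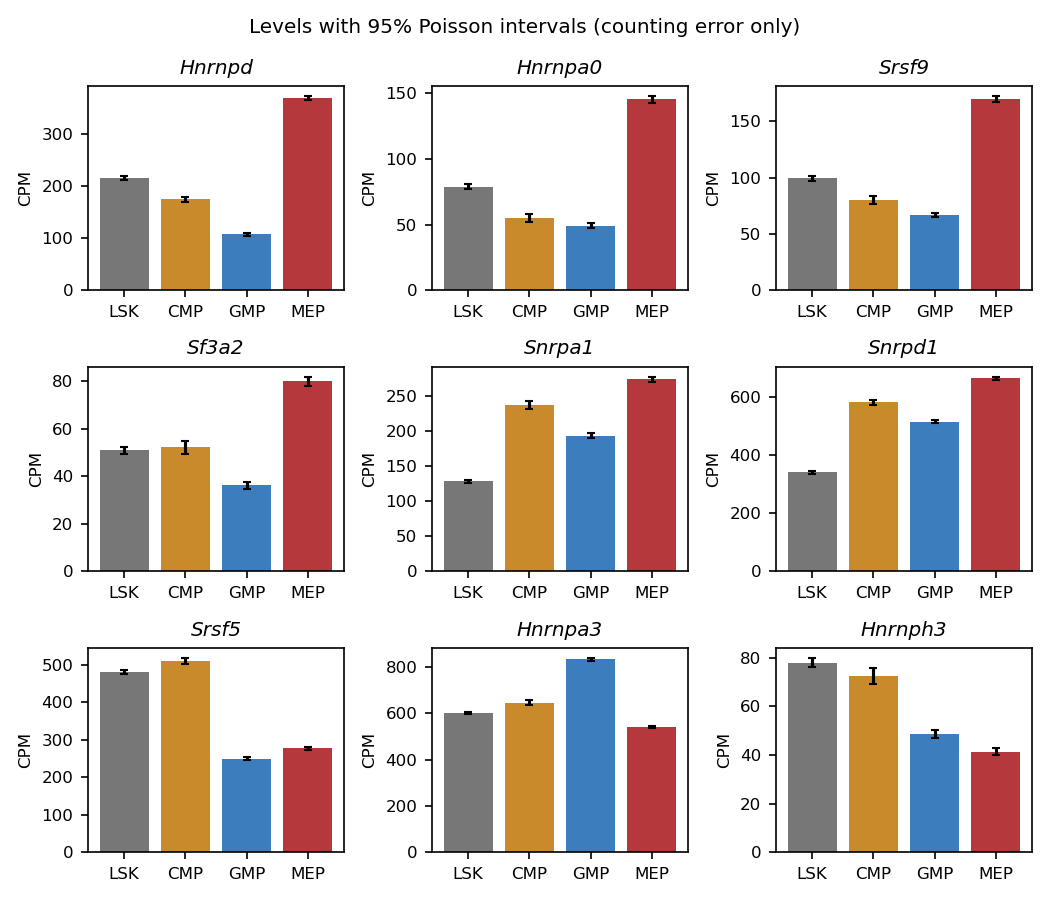
Bars give the level in CPM of 9 genes in the 4 libraries, with 95% Poisson intervals that cover counting error only. Hnrnpd, Hnrnpa0, Srsf9 and Sf3a2 stand highest in MEP, Snrpa1 and Snrpd1 lowest in LSK, Srsf5 and Hnrnph3 are high in LSK and CMP, and Hnrnpa3 is highest in GMP.

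For the comparison of gates, a gene was counted as different when its CPM differed at least 1.5-fold and reached 50 in the library where it was higher. The same rule was run over all genes that reached 50 CPM in either library. Log2 ratios carry their counting interval in brackets.

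LSK and CMP were compared first. No member was higher in LSK and 4 of 48 were higher in CMP, and of the 3056 genes tested 14.6% passed in the LSK direction and 10.6% in the CMP direction. The 4 were Snrpa1 with a log2 ratio of LSK to CMP of -0.88 (-0.93 to -0.84), Snrpd1 with -0.77 (-0.80 to -0.74), Sf3b5 with -0.64 (-0.67 to -0.60) and Hnrnpa2b1 with -0.62 (-0.64 to -0.60). The share of members higher in CMP, 8.33%, was near the share over all genes. The median over the 50 members was -0.25, beside -0.05 over all genes with 50 CPM and 0.33 over all genes with a mean of 1 CPM. All 7 Sm core genes above 1 CPM and all 4 particle-specific genes lay below 0, with medians of -0.41 and -0.47. The SR proteins were split, 4 above and 6 below. The share of all genes below 0 was not counted. Scaling mattered most in this contrast: median of ratios moved every ratio by -0.38 and TMM by -0.32. With them 27 and 24 members were higher in CMP and none in LSK, against 36.2% and 30.9% of all genes higher in CMP. By CPM, 447 genes in all passed on the LSK side and 323 on the CMP side, and by median of ratios 151 and 1105. Genes of mitosis also differed between these gates, as the sum of 15 of them was 1384 CPM in LSK and 1800.3 in CMP, with 2020 in GMP and 2542 in MEP. When cells with a UMI of these 15 genes after thinning to 2000 UMIs were left out, 5466 cells remained in LSK and 1208 in CMP. The 1208 include 36 CMP cells below 2000 UMIs, which were not thinned or scored. Then 9 members were higher in CMP and none in LSK, beside 11.9% and 16.0% of all genes, and the median was -0.27. In all their UMIs the scored cells with none still held these transcripts, at 159 CPM in LSK and 254 in the 1172 such cells of CMP. With cells of 3 or more UMIs of the whole G2/M list left out, 11 members were higher in CMP, beside 13.3%, and the median was -0.34.

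CMP and GMP differed little in these genes. Of 48 members tested 3 were higher in CMP and 1 in GMP, beside 8.95% and 6.99% of all 2804 genes. Srsf5 was higher in CMP by a log2 ratio of 1.03 (0.997 to 1.06), Hnrnpd by 0.70 (0.65 to 0.75) and Sf3b1 by 0.64 (0.61 to 0.68), and Hnrnpll was higher in GMP, with -0.73 (-0.83 to -0.62). Under all 3 scalings (CPM, median of ratios and TMM) Srsf5 and Hnrnpll met the rule and Hnrnpd and Sf3b1 did not, beside 6.24% of all genes higher in CMP and 6.99% higher in GMP. By median of ratios alone the counts were 1 and 1, beside 6.24% and 11.3%, and by TMM 1 and 1, beside 6.67% and 10.2%. The members' median was 0.18 by CPM and 0.02 by median of ratios, against 0.01 by CPM over all genes with 50 CPM. By CPM, 251 genes in all passed on the CMP side and 196 on the GMP side, and by median of ratios 175 and 316.

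CMP and MEP differed in 8 of 50 members, 16.0%, where 42.6% of all 3104 genes differed. Higher in CMP were 2 members, Srsf5 with 0.88 (0.85 to 0.91) and Hnrnph3 with 0.80 (0.72 to 0.88), beside 17.5% of all genes. Higher in MEP were 6, beside 25.1% of all genes: Hnrnpa0 with -1.41 (-1.49 to -1.33), Srsf9 with -1.08 (-1.15 to -1.02), Hnrnpd with -1.08 (-1.13 to -1.04), Hnrnpll with -0.65 (-0.76 to -0.55), Sf3b3 with -0.62 (-0.71 to -0.53) and Sf3a2 with -0.62 (-0.70 to -0.53). All 8 met the rule under all 3 scalings, as did 14.7% of all genes on the CMP side and 25.1% on the MEP side. The medians of the hnRNPs, the Sm core and the particle-specific genes were 0.06, 0.07 and 0.01 by CPM and -0.08, -0.07 and -0.13 by median of ratios, so their direction depended on the scaling. By CPM, 543 genes in all passed on the CMP side and 778 on the MEP side, and by median of ratios 456 and 1017.

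GMP and MEP, the gates of the granulocyte/monocyte and of the megakaryocyte/erythroid branch, differed by CPM in more members than any other pair of gates compared here, though by median of ratios and TMM LSK and CMP differed in more. The rule was met by 12 of 49 members, 24.5%, beside 44.0% of all 3066 genes, by CPM. Only Hnrnpa3 was higher in GMP, with 0.62 (0.60 to 0.64), beside 17.4% of all genes. In MEP 11 members were higher, 22.4%, beside 26.6% of all genes. They were Hnrnpd with -1.78 (-1.82 to -1.74), Hnrnpa0 with -1.56 (-1.62 to -1.51), Srsf9 with -1.34 (-1.39 to -1.30), Sf3a2 with -1.14 (-1.21 to -1.08), Sf3b4 with -0.80 (-0.84 to -0.76) and Srsf10 with -0.73 (-0.77 to -0.69). Next came Hnrnpc, which binds U-rich tracts, with -0.69 (-0.71 to -0.66), Sf3b3 with -0.65 (-0.71 to -0.58), Sf3a1 with -0.64 (-0.71 to -0.57), Hnrnpab with -0.61 (-0.63 to -0.58) and Hnrnpdl with -0.60 (-0.63 to -0.56). Hnrnpc was at 345 CPM in GMP and 556 in MEP, Hnrnpab at 315 and 479 and Hnrnpdl at 165 and 250.1. All 10 SR protein genes above 1 CPM, all 3 SF3a genes and all 6 SF3b genes lay below 0 under each of the 3 scalings. Their medians were -0.29, -0.64 and -0.47 by CPM. Median of ratios and TMM moved every ratio of this contrast by only 0.021 and 0.01. The share of all genes below 0 was not counted. The hnRNPs were divided, 9 above and 11 below. The members' median was -0.24, beside -0.21 over all genes with 50 CPM, and thus close to it. Genes of ribosome biogenesis differed more, summing to 6370 CPM in GMP and 11138 in MEP, and their part in the members' difference was not tested. Without cells that held mitotic UMIs after thinning, 8 members were higher in MEP and none in GMP, beside 22.0% and 16.0% of all genes. Hnrnpc with -0.47, Hnrnpab with -0.51 and Hnrnpdl with -0.58 then fell short of 1.5-fold, Sf3a1 did not reach 50 CPM, and Hnrnpul1 met the rule with -0.77. There the ratio was -1.79 for Hnrnpd, -1.32 for Hnrnpa0, -1.11 for Srsf9, -1.07 for Sf3a2 and 0.50 for Hnrnpa3.

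At a stricter 2-fold difference few members remained. None of 48 passed between LSK and CMP, beside 6.12% of all genes on the LSK side and 2.72% on the CMP side. Between CMP and GMP Srsf5 was higher in CMP and no member in GMP, beside 4.03% and 2.92%. Hnrnpa0, Srsf9 and Hnrnpd were higher in MEP than in CMP and none the other way, beside 10.5% and 11.3%. Between GMP and MEP Hnrnpd, Hnrnpa0, Srsf9 and Sf3a2 were higher in MEP and none in GMP, beside 12.1% and 12.2%.

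**Figure D3:**
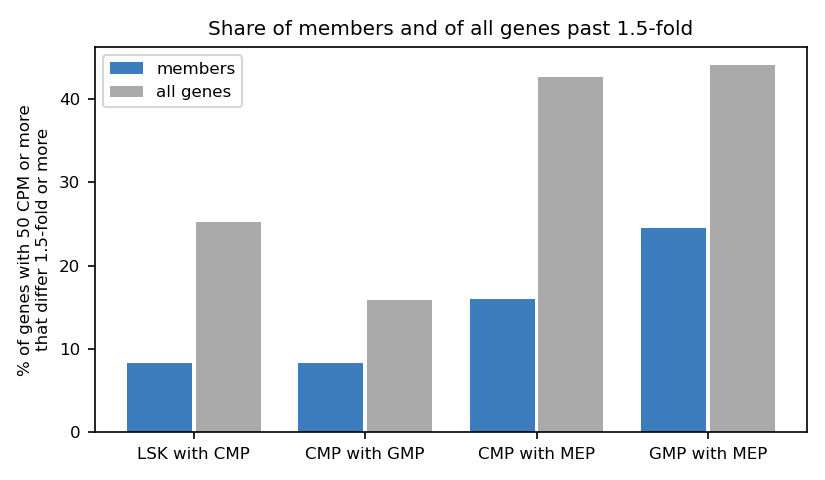
Bars give, for the 4 comparisons of gates, the percent of members and of all genes with 50 CPM or more that differed 1.5-fold or more in either direction by CPM. By CPM the members' bar is the lower in every comparison, with 8.33, 8.33, 16.0 and 24.5% beside 25.2, 15.9, 42.6 and 44.0%; between LSK and CMP it was the higher with the other scalings, with 27 of 48 members beside 41.1% of all genes by median of ratios and 24 of 48 beside 36.7% by TMM.

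The difference in Hnrnpd was also seen as a share of cells. At 2000 UMIs per cell, 30.3% of LSK cells (29.4 to 31.2), 28.7% of CMP cells (27.2 to 30.2), 1525 of 8027 GMP cells (18.1 to 19.9%) and 50.1% of MEP cells (48.8 to 51.3) had a UMI of Hnrnpd, by exact Clopper-Pearson intervals. Without thinning the shares were 64.4, 64.4, 59.2 and 92.9%. No cell type here is known to lack Hnrnpd, so a background share cannot be given, and these shares follow the CPM. Srsf5 was seen in 63.1% of LSK and 64.8% of CMP cells at that depth, but in 39.7% of GMP and 43.5% of MEP cells, and without thinning in 93.3, 94.9, 85.9 and 93.2%.

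Whether the GMP and MEP difference appeared inside 1 library was examined in CMP. Cells with 3 or more UMIs of the 6 granule genes and fewer of erythroid and megakaryocyte genes (2564 cells) were set against cells with 3 or more UMIs of the erythroid genes and fewer of the others (208 cells), each cell thinned to 2000 UMIs for this choice. These 6 granule genes were chosen after seeing the data, because Srgn and Gstm1 of the longer list are present in most CMP cells. No member was higher in granule-gene cells and 5 of 47 were higher in erythroid-gene cells, beside 13.5% and 18.9% of all 3088 genes. Hnrnpul1 was at 49.9 CPM in granule-gene and 87.7 in erythroid-gene cells, a log2 ratio of -0.81 (-1.15 to -0.46). Hnrnpd was at 149.97 and 257 CPM, or -0.78 (-0.97 to -0.58), and Sf3a2 at 48.3 and 78.6 CPM, or -0.70 (-1.06 to -0.33). Hnrnpa0 was at 51.5 and 77.5 CPM, or -0.59 (-0.94 to -0.21). Hnrnpd, Sf3a2 and Hnrnpa0 were thus higher on the erythroid side both inside CMP and between the GMP and MEP libraries. Of the 11 members higher in MEP than in GMP, these 3 had an interval on the same side of 0 inside CMP, 1 (Sf3b4, 0.45) had it on the other side, and 7 had intervals that held 0, among them Srsf9 with -0.21 (-0.55 to 0.14). The same split was not counted over all genes, so it cannot be read as particular to the members. Over all genes with a mean of 1 CPM the median inside CMP was -0.23. Hnrnpa3 was higher on the granule side in both, with 0.43 (0.29 to 0.57) inside CMP. With the 6 granule genes, the sum of the members went the other way inside CMP than between the libraries. Their sum was 17078 CPM in granule-gene and 15698 in erythroid-gene cells, a log2 ratio of 0.122 (0.097 to 0.146). Between GMP and MEP the log2 ratio of the sum was -0.218 (-0.221 to -0.214). Inside CMP 20 of the 50 members had an interval above 0 and 7 below, and such intervals were not counted over all genes. With the longer granule list 3081 cells stood against 53. Then 3 members were higher in granule-gene and 5 in erythroid-gene cells, beside 13.6% and 19.6% of all genes. The log2 ratio of the members' sum was then only 0.044 (0.001 to 0.087), with 5 intervals above 0 and 5 below. The members' median was -0.008 with the longer list and 0.119 with the 6 granule genes. The 15 mitotic genes differed between the cells first compared, with a sum of 1596 CPM in granule-gene and 2472 in erythroid-gene cells. The share of cells with 3 or more of their UMIs after thinning had the other order, 35.7% and 32.2%. With the longer granule list these shares were 35.1% and 45.3%. Hnrnpd was also higher in mitotic cells than in cells with none, by 0.15 (0.04 to 0.25) within CMP, and the part of mitotic cells in these ratios was not tested.

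**Figure D4:**
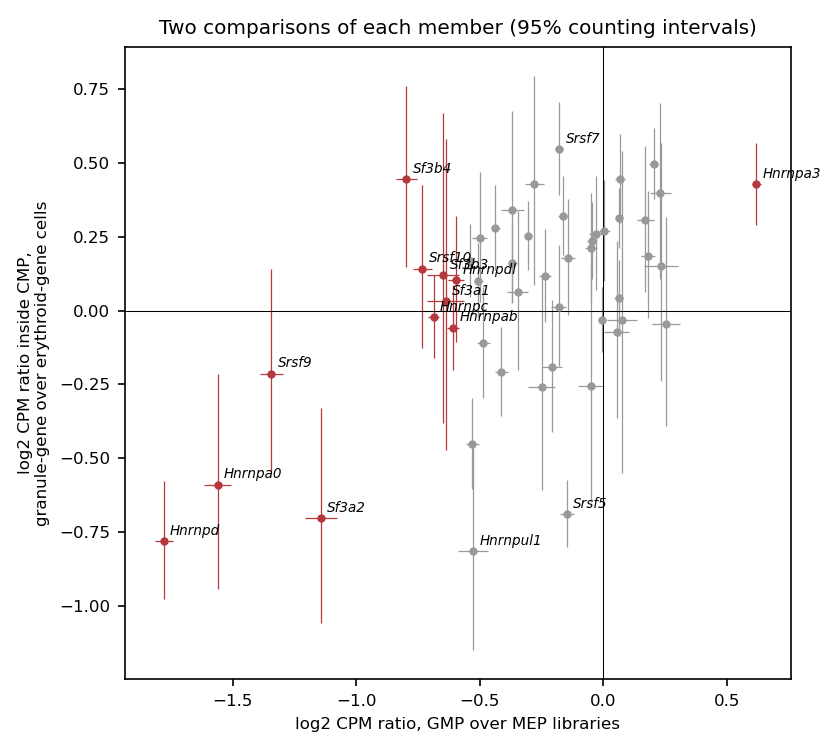
Each point is 1 member, with its log2 CPM ratio of the GMP to the MEP library on the x axis and of granule-gene to erythroid-gene cells inside CMP on the y axis, both with 95% counting intervals. Members that met the rule between GMP and MEP are red; Hnrnpd, Hnrnpa0 and Sf3a2 lie below 0 on both axes, and Sf3b4 lies below 0 on the first and above 0 on the second.

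Srsf5 was the fifth member of that comparison, at 478 CPM in granule-gene and 770.0 in erythroid-gene CMP cells, or -0.69 (-0.80 to -0.57). Between the GMP and MEP libraries it was also higher on the MEP side, by -0.15 (-0.18 to -0.12), which was short of the rule, while the CMP library was above MEP by 0.88. The 14 immediate early genes, such as Fos, Jun and Egr1, differed between the same cells: their sum was 3320 CPM in granule-gene and 10024 CPM in erythroid-gene CMP cells, and 6933, 4153, 1241 and 689 CPM over the whole LSK, CMP, GMP and MEP libraries. The erythroid-gene cells were also shallower, with a median of 3685 UMIs against 7959. The part of either in the level of Srsf5 was not tested.

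Within each library, cells with 3 or more UMIs of the 15 mitotic genes were compared with cells with none, a list that was narrowed after seeing the data. There were 2157 and 5466 such cells in LSK, 1341 and 1172 in CMP, 4270 and 1216 in GMP, and 4149 and 582 in MEP. The counts of mitotic UMIs that put a cell in either class were taken after thinning to 2000 UMIs, so cells with none still held mitotic transcripts at 159, 254, 463 and 591 CPM in the order LSK to MEP, against 3989, 3477, 2895 and 3013 CPM in mitotic cells. No member met the rule in any of the 4 libraries, while 7.39% of all genes were higher and 3.07% lower in mitotic cells in LSK, 5.01% and 1.12% in CMP, 2.74% and 1.18% in GMP, and 5.37% and 5.26% in MEP. The summed members were nevertheless above 0 in each library, with log2 ratios of 0.275 in LSK and 0.105 in CMP, and of 0.04 and 0.09 in GMP and MEP. The Sm core sum gave 0.36, 0.13, 0.06 and 0.18 in the order LSK, CMP, GMP, MEP. Other lists moved with these classes too: in LSK the HSC genes summed to 407 CPM in mitotic cells and 676 in cells with none, and the S phase genes to 3980 and 2554, and in MEP the megakaryocyte genes to 96.7 and 340.1. Their part in the members' sums was not tested. Of the 48 members with a mean of 50 CPM, 12 had an interval above 0 in all 4 libraries, beside 11.3% of all 2722 genes at that level, namely Hnrnpa1, Hnrnpd, Hnrnpdl, Sf3b2, Sf3b5, Snrpa1, Snrpb, Snrpc, Snrpd1, Snrpe, Srsf1 and Srsf3. Sf3b5 had ratios of 0.56, 0.30, 0.24 and 0.35 in LSK, CMP, GMP and MEP. Among these 48 only Srsf5 had its interval below 0 in all 4, as 7.97% of all genes did, with -0.42, -0.28, -0.21 and -0.42. The immediate early sum was lower in the mitotic cells of each library as well, at 5431 against 7957 CPM in LSK, 4102 against 4684 in CMP, 1187 against 1493 in GMP and 519 against 1726 in MEP, and its part in the level of Srsf5 was not tested. With the whole G2/M list, which left 261, 19, 12 and 3 cells with none, members higher and lower in cells with G2/M UMIs numbered 1 and 0 in LSK (6.07% and 1.55% of all genes), 8 and 2 in CMP (16.9% and 20.0%), 7 and 1 in GMP (15.6% and 18.8%) and 10 and 13 in MEP (4.25% and 72.4%). So few cells without these transcripts leave little to compare outside LSK. Mitotic cells were deeper in every library, by median UMIs of 10041 against 5430 in LSK and 14736 against 6617 in MEP.

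**Figure D5:**
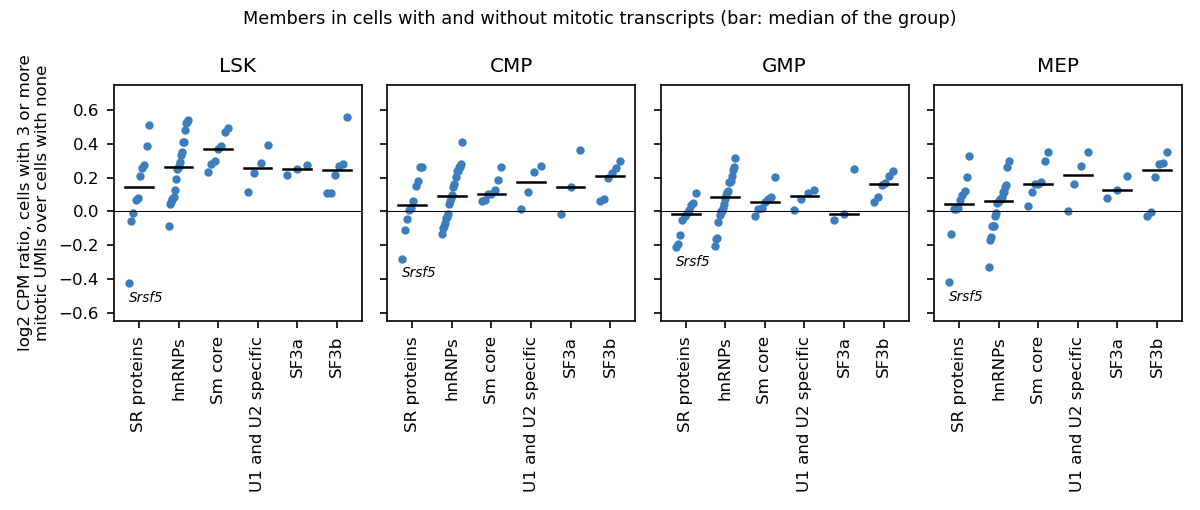
Each panel is 1 library and each point 1 member, by family, with the log2 CPM ratio of cells with 3 or more mitotic UMIs to cells with none, both counted after thinning to 2000 UMIs; the black bar is the family's median. All points lie within 0.56 of 0, and Srsf5 is the lowest SR protein gene in each panel.

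The other genes of the splicing pathway were taken from a list of 121 genes found in the matrices. Between LSK and CMP, by CPM 4 of 85 stood on the LSK side and 8 on the CMP side, beside 14.6% and 10.6% of all genes, and by median of ratios 1 and 33, beside 4.94% and 36.2%. Clk1, a kinase that phosphorylates SR proteins, was at 176 in LSK, 105 in CMP, 42.6 in GMP and 45.4 CPM in MEP, with LSK and CMP above the others as for Srsf5. Mbnl2 was at 84.2 CPM in LSK and 37.1 in CMP, and Tia1 at 135 and 84.5 CPM. On the CMP side stood Ppih, a component of the U4/U6 particle, at 57.2 and 109 CPM, Lsm5 at 171 and 321 and Lsm6 at 205 and 371 CPM, both of the ring on U6 RNA, and Magoh, of the exon junction complex, at 201 and 345 CPM. All 7 genes of that LSm ring lay below 0, as did the 7 Sm genes, and the share of all genes below 0 was not counted.

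Between CMP and GMP 6 of 82 were higher in CMP and none in GMP, beside 8.95% and 6.99% of all genes, and 2 of the 6 met the rule under all 3 scalings. The largest were Clk1, with 1.30 (1.23 to 1.37), Tra2b, an SR-like splicing activator, at 448 and 242 CPM, Ddx5, an RNA helicase, at 935 and 573, and Rbm39 at 755 and 474 CPM. Between CMP and MEP 7 of 88 were higher in CMP and 10 in MEP by CPM, beside 17.5% and 25.1% of all genes, and by median of ratios 5 and 23, beside 14.7% and 32.8%. Celf2, a regulator of alternative splicing, was at 184 CPM in CMP and 22.6 in MEP, and Srpk2, a second kinase of SR proteins, at 57.3 and 18.4 CPM. Among the splicing genes that met the rule between CMP and MEP these had the widest differences, members included. Phf5a, a subunit of the SF3b complex under another name, was at 157 CPM in CMP, 180.4 in GMP and 344 in MEP, and Ddx46, the helicase that remodels U2, at 123, 112 and 229 CPM. Between GMP and MEP 4 of 84 were higher in GMP and 17 in MEP, beside 17.4% and 26.6% of all genes, and 4 and 15 under all 3 scalings. Celf2 (155 against 22.6 CPM), Srpk2 (56.8 against 18.4), Lsm6 (472 against 280.4) and Lsm5 (383 against 233) were the 4 in GMP. All 16 genes of the U1, U2 and branch-site group and all 8 of the exon junction complex lay below 0. Of the U4/U6.U5 tri-snRNP 15 of 17 did, among them the U5 proteins Prpf8 (37.9 against 68.2 CPM) and Eftud2 (34.7 against 63.2 CPM). How many of all genes lay below 0 was not counted.

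Several members overlap another gene, and whether strand was used in the authors' counting is not stated. On the opposite strand Srsf2 overlaps Mettl23 and Mfsd11, Sf3a2 overlaps Plekhj1, Hnrnph3 overlaps Rufy2 and Sf3b3 overlaps Cog4, and reads of such pairs might not be told apart. Several members, such as Hnrnpa1, Snrpe and Snrpg, have processed copies elsewhere in the genome that can take up part of their reads.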

How the data were processed

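UMI counts per gene and barcode were deposited by the authors as raw matrices of 10x Genomics 3' libraries, per the labels' protocols; the tools named in the submitters' processing notes are Cell Ranger 2.0.0, Seurat 2.3.0 and CASAVA 1.8.2, with the build mm10. How cells were filtered is not given in these sources. The LSK matrix held 737280 barcodes, of which the 10883 with 2110 or more UMIs were taken (10882 cells are stated). The CMP matrix held 3738 of a stated 12185 cells. A cell was kept if it had at least 500 genes and no more than 10% of its UMIs from mitochondrial genes. Doublets stayed in; leaving out the highest scrublet scores was an alternative. Counts were summed per library and scaled by the total (CPM), by median of ratios, or by TMM (edgeR 4.0.16), in Python 3.11.15. Ratios have exact conditional binomial, levels exact Poisson and shares exact Clopper-Pearson intervals, all at 95%. In ratios any count below 3 was set to a floor of 3 counts. With 1 library per gate no test was made.

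Members and lists were chosen with earlier results of these data known. Named members were up to 10 per direction and contrast, the 3 highest of each family, Sf3b1, Srsf2, Hnrnpll and Snrpn, up to 5 per direction within libraries and up to 5 per direction for other splicing genes; members with near-zero counts, Hnrnpa3 inside CMP, Hnrnpk, members of intermediate rank and the genes called out by overlap or by mitotic intervals were named after their values were seen. On data simulated for the 4 contrasts, with 200 of 27998 genes changed 2-fold and counting noise only, 100% of the changed genes and 0 others met the rule. The 200 were drawn from genes with a mean of 50 CPM or more, where counting noise is small beside a 1.5-fold cut. The run therefore checks the computation only, not genes at lower levels or variation between sorts. Coordinates are from GENCODE M21 and RefSeq. Lists also measured were megakaryocyte (284, 504, 21.8 and 139 CPM, in the order LSK to MEP), HSC (572, 53.8, 28.4 and 94.7), lymphoid-primed (642, 92.1, 19.3 and 2.07), monocyte (120.4, 1026, 2338 and 4.58), basophil/mast (36.0, 309, 361 and 5.67), B (48.9, 46.4, 52.2 and 2.95), T/NK (306, 426, 1205 and 46.3), S phase (3327, 3948, 3778 and 4183) and G2/M (5141, 6374, 6983 and 8483) genes.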

Additional observations from a re-analysis of the deposited data

How the results depend on the processing

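Each gate had 1 library, so leaving out a replicate was not possible. No paired analysis was possible because no gate had a second library. The counting intervals depend on depth and do not measure variation between sorts. Depth also bears on the shares of cells without thinning and on the weight of each cell in a library sum. The 28 named member ratios had been chosen for reaching 1.5-fold by CPM. Median of ratios and TMM move all ratios of a contrast equally, at most by -0.377 (LSK with CMP). No sign of these 28 could therefore change under those scalings. The 28 ratios kept their sign in all but 2 of 196 values over 7 alternatives: Sf3b3 became 0.19 between CMP and MEP and 0.11 between GMP and MEP when cells with 3 or more G2/M UMIs were left out, which kept 52 MEP cells. Without these cells the ratios of Srsf9 (-0.31), Hnrnph3 (0.24) and Hnrnpll (-0.24) between CMP and MEP, of Hnrnpd (0.37) and Hnrnpll (-0.27) between CMP and GMP, and of Hnrnpa3 (0.32), Sf3b4 (-0.47), Hnrnpdl (-0.26), Hnrnpc (-0.23) and Hnrnpab (-0.36) between GMP and MEP kept their sign but fell short of 1.5-fold.

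Between LSK and CMP, the members higher in CMP numbered 27 by median of ratios, 24 by TMM, 0 at 2-fold, 7 with each cell weighted equally, and 11 and 9 without cells with G2/M or with mitotic UMIs (the latter added after seeing the data), beside 11.7%, 13.3% and 11.9% of all genes for the last 3; the median became -0.63 by median of ratios and -0.57 by TMM. Between CMP and GMP, members higher in CMP numbered 1 by median of ratios, 1 by TMM, 1 at 2-fold and 5 without G2/M cells (13.5% of all genes); members higher in GMP numbered 0 at 2-fold and 0 without G2/M cells (9.53%); the medians were 0.019 and 0.049 by median of ratios and TMM. Between CMP and MEP, the medians were -0.25 and -0.23 by these scalings, 0 and 3 members were higher in CMP and in MEP at 2-fold, and 1 was higher in CMP without mitotic cells (14.9% of all genes). Between GMP and MEP, 0 and 4 were higher in GMP and in MEP at 2-fold, 0 and 7 without G2/M cells (15.4% and 25.2% of all genes), and 0 in GMP without mitotic cells (16.0%). In 2-fold counts the stricter rule itself lowers the number. Median of ratios and TMM move every ratio of a contrast by the same amount, which shifts the counts and medians. For other changes the cause was not tested.

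Family medians changed sign for SF3a between LSK and CMP (0.038 without mitotic cells), for the SR proteins between CMP and GMP (-0.062 by median of ratios, -0.032 by TMM), for the hnRNPs (-0.083, -0.064), Sm core (-0.073, -0.054) and particle-specific genes (-0.132, -0.113) between CMP and MEP by the same scalings, and for the Sm core between GMP and MEP (0.174 without G2/M cells, 0.024 without mitotic cells).

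Inside libraries, the planned G2/M list left 261, 19, 12 and 3 cells with no UMI in LSK, CMP, GMP and MEP. It called 1, 10, 8 and 23 members; a minimum of 5 UMIs gave 4 in LSK, and the 15 mitotic genes gave 0, 0, 0 and 0. Between granule-gene and erythroid-gene CMP cells, the planned lists called 8 members, a minimum of 2 UMIs called 4 and the 6 granule genes 5. For the minimums of 5 and of 2 UMIs the share over all genes was not counted. These counts therefore cannot be read as a result about the members.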
